A study of Mus musculus with 55 samples.

Results

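IL-3348 is one line of the Collaborative Cross (CC), a panel of recombinant inbred mouse lines descended from the wild-derived strains WSB/EiJ, CAST/EiJ and PWK/PhJ and the laboratory strains C57BL/6J, A/J, NOD/ShiLtJ, 129S1/SvImJ and NZO/HlLtJ. Its members here were the 2 mice whose strain label reads IL-3348, of 55 male mice with liver polyA RNA sequenced, and they were compared with the 53 mice of the other 28 lines. All 55 mice were naive and untreated. The IL-3348 mice, called mouse 1 and mouse 2, were both 8.1 weeks old and weighed 26.6 and 23.5 g, whereas the other mice were between 8 and 11.9 weeks old and weighed between 12.8 and 38 g. A line with 2 mice is a small sample of a genotype, and nothing in the labels says whether the mice shared a litter, a cage or a day of collection, so that line and such shared conditions cannot be told apart.

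Mice of a CC line carry nearly the same mosaic of founder haplotypes, so that line mates are close to genetic copies of each other, whereas 2 lines differ at many loci. The liver is well suited to such a comparison because its detoxification enzymes, secreted serum and urinary proteins and complement factors are known to differ between inbred strains. Some gene families, including the major urinary proteins and the KRAB zinc-finger proteins (transcription factors that are known to silence mobile elements), lie in arrays of near-identical copies that differ in number between strains.

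The depth was 31.8 M and 27.3 M estimated fragments in the IL-3348 mice, within the 20.5 to 34 M of all mice, and 11284 genes reached a maximum of at least 2 FPKM (fragments per kilobase of transcript, scaled to library size). Across these genes the IL-3348 mice had a Spearman correlation of 0.983 with each other. The mice of line IL-3438 were the closest among the others, at 0.955 to 0.967, and the remaining mice ranged from 0.896 to 0.946. These correlations are across genes of whole livers, share the highly expressed hepatocyte genes and are given as a description. One point has to precede the results. Mouse 1 alone had high levels of several genes of mucosal epithelia, with Dmbt1 at 28.4 FPKM against 0.01 in mouse 2 and at most 2.05 elsewhere, and calls that rest on it are given below with and without it. In bulk tissue, fewer cells of a type and less RNA per cell cannot be told apart. Lines IL-1052 and IL-2750, whose mice differed within the line for some genes, were left out in an alternative. Cyp2a12, for example, had 81.7 and 335 FPKM in IL-1052 and 140, 355 and 102 FPKM in IL-2750.

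Both IL-3348 mice lay above all 53 other mice for 86 genes (0.762% of the genes examined) and below all of them for 11 genes (0.0975%). The size of the excess of genes above over genes below depended on the scale. When counts were divided by library sizes scaled with TMM (a normalization that is less sensitive to a few abundant transcripts), the split was 30 genes above (0.266%) and 22 below (0.195%). Outside the range on both scales were 28 genes above (0.248%) and 9 below (0.0798%), and the description starts from these. FPKM are shares of a library, and the major urinary protein transcripts, among the most abundant of the male liver, took 57955 and 91808 CPM (counts scaled to a fixed library size) in the IL-3348 mice against a median of 152055 CPM (24979 to 281820) in the others; the part of this difference in the split was not tested.

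The same rule was applied to the other 15 lines with 2 mice. They had between 2 genes (IL-1052) and 943 genes (IL-2146) outside the range, with a median of 108, so that 97 genes were not a large number for a line of 2 mice. By direction, 6 of the 15 lines had more genes above the range and 13 had more genes below it. A threshold of this kind is sharp. A further 123 genes missed the upper limit by 1 mouse and 8 genes the lower limit by 1 mouse. Of the 70 genes above the range outside the chromosome 2 run described below, 56 exceeded the highest other mouse by less than 10%, as with Ncoa4 (65.1 and 59.9 FPKM against at most 59.9). Among the 11 genes below, 5 were within 10% of the lowest other mouse. Of the 86 genes above, 2 passed the expression filter through the IL-3348 mice alone.

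**Figure D1:**
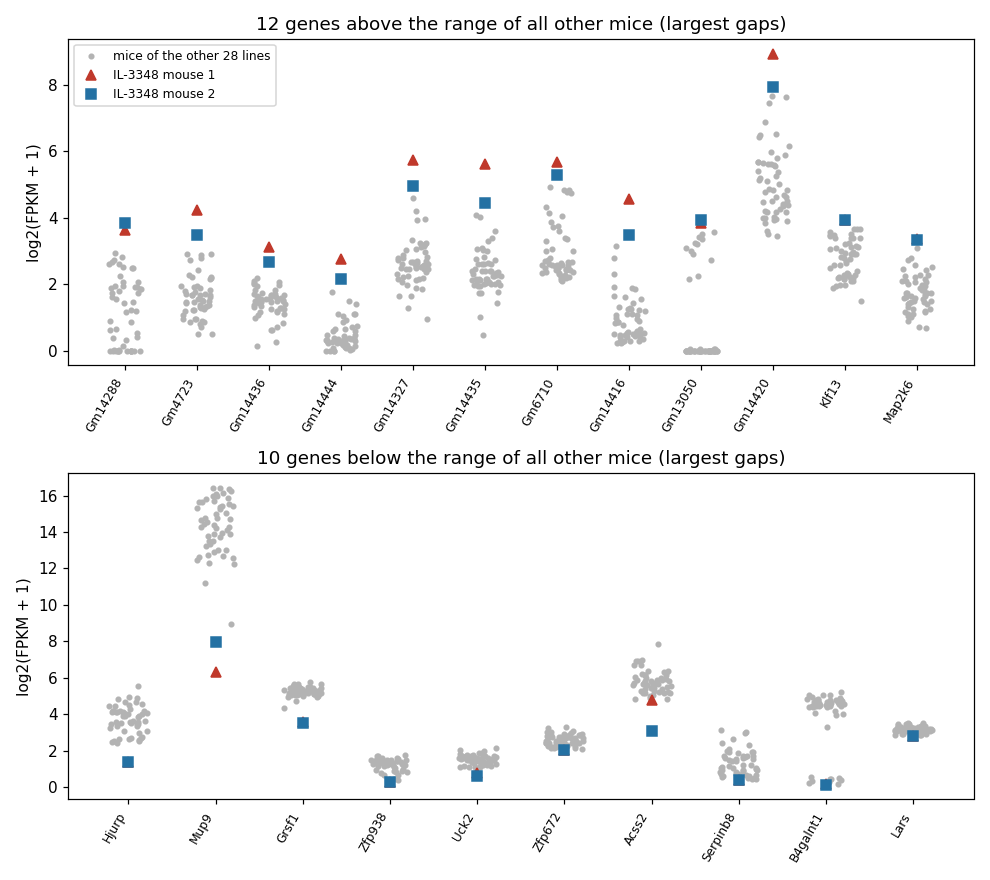
FPKM on a log2(FPKM + 1) scale of the 12 genes above the range and of the 10 genes below it with the largest gaps, with 53 grey points for the mice of the other 28 lines, a red triangle for IL-3348 mouse 1 and a blue square for mouse 2. Of the 12 genes above, 9 belong to the chromosome 2 run, and Hjurp, Mup9 and Grsf1 have the widest gaps below.

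The largest group above the range was a run of neighbouring zinc-finger genes at the end of chromosome 2. In this run, 16 of the 97 genes followed each other within 1 Mb over 2.8 Mb (mm9, chr2:174835742-177640489). They comprised 13 protein-coding genes and 3 pseudogenes, all predicted genes without a functional name. In the annotation, 10 of these 13 coding genes encode at least 3 C2H2 zinc fingers (up to 16, in Gm6710 and Gm14391), against 2.35% of 10466 coding genes examined. The others, Gm14288, Gm14327 and Gm14435, have none in their annotated coding sequence. Fingers were not particular to the run. Of the coding genes examined in the interval outside the run, all but Gm14440 and Gm11008 also encode at least 3, up to 25 in Gm14295.

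A part of the promoters is shown because several copies, raised and unraised, are nearly identical there. Windows of 250 bases before and 50 bases after each annotated gene start (300 bases, mm9) were searched on both strands for CCAATCAG, a CCAAT-box sequence. It was present in 11 of the 16 genes of the run, in 18 of the other 23 genes examined in the interval and in 5.21% of 11259 windows of all genes. The likeness did not extend to the whole run. The 11 windows with the match shared 46.7 to 100% of their 12-base words with the window of Gm14420, itself included. The 5 windows of the run without it shared at most 3.8%. Below are the 58 bases that end with this match, with the match in capitals, for the 4 genes of the run with the highest FPKM among those that hold it, and then for 2 genes of the interval that were not raised.

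Gm14420: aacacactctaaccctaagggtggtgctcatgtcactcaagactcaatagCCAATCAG

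Gm14327: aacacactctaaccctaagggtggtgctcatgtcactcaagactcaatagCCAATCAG

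Gm6710: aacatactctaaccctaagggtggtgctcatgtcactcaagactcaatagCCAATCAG

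Gm14435: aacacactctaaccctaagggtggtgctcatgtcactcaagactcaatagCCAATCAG

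Gm14434: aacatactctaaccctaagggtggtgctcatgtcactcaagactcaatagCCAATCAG

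Gm14308: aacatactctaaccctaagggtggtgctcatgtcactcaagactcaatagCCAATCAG

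These stretches lie at chr2:177249328-177249385 (plus strand), chr2:177631733-177631790 (plus), chr2:175868288-175868345 (plus), chr2:176329952-176330009 (minus), chr2:176266623-176266680 (plus) and chr2:176421117-176421174 (minus), and the match ends between 5 and 63 bases before the gene start. All 58 bases are the same in Gm14420, Gm14327 and Gm14435, and 57 are the same in Gm6710, Gm14434 and Gm14308. Raised and unraised copies therefore could not be separated by these letters, which are those of the reference genome and not of the mice. The transcribed sequence is shared as well. A median of 82.3% (32 to 100%) of the 50-base words of a run gene, the read length of the study, also occurred in another gene of the interval. Only 6.43% of the estimated counts of the interval were within 0.005 of a whole number, against 74.7% over all genes examined, which is how the quantification records fragments split between copies. The value of any single copy is therefore uncertain. The sum over the genes examined in the interval does not depend on how fragments were split between them. Fragments shared with other genes, in the interval or elsewhere, could still move it.

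Summed over the 39 genes examined in the interval, mouse 1 had 2093 CPM and mouse 2 had 1065 CPM. The other mice ranged from 110 to 914 CPM with a median of 221 CPM, and their line means averaged 310 ± 195 CPM (SD, n = 28 lines). The IL-3348 mice ranked first and second of 55, ahead of the single mouse of IL-2126, and mouse 1 had nearly double the sum of its line mate. The gap of mouse 2 to the highest other mouse was thus far smaller than the gap between the line mates. Line IL-3438, the line most like IL-3348, had 607.9 CPM in its higher mouse. With 1 line against 28, an exact permutation test over lines, with p doubled for both directions, cannot give less than p = 0.069. No such test was used for single values.

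Gm14420, the most abundant gene of the run (chr2:177249438-177262834), had 488 and 241 FPKM against a median of 27.5 (9.84 to 200) in the other mice, with the highest other value in IL-1513. Both IL-3348 mice were above every other mouse, mouse 1 by a wide margin. Gm14327 had 52.5 and 30.2 FPKM against 0.93 to 23.1, and Gm14435 had 48.0 and 20.6 FPKM against 0.38 to 15.8. Gm6710 reached 50.5 and 37.6 FPKM, where the highest other mouse, of IL-2146, had 29.2. In Gm14288 the order of the line mates was turned, with 11.5 and 13.3 FPKM against at most 6.65. Mouse 1 exceeded mouse 2 in 15 of the 16 genes, by a median of 1.76 times (0.867 to 2.39). Gm14306 was just outside the range, with 8.51 and 5.79 FPKM against at most 5.78.

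Not every gene of the interval was raised. Both IL-3348 mice exceeded the median of the other mice in 33 of the 39 genes, and 23 genes stayed inside the range. Gm14434 had 0.16 and 0 FPKM where the other mice had a median of 1.53 and reached 10.3. Gm14308 was listed at 0 in both, with a median of 0.87 in the others, and Gm14305 had 0.52 and 0.16 FPKM against a median of 2.13. Some other mice were at 0 for these 3 genes, and they were named after their values were seen.

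**Figure D2:**
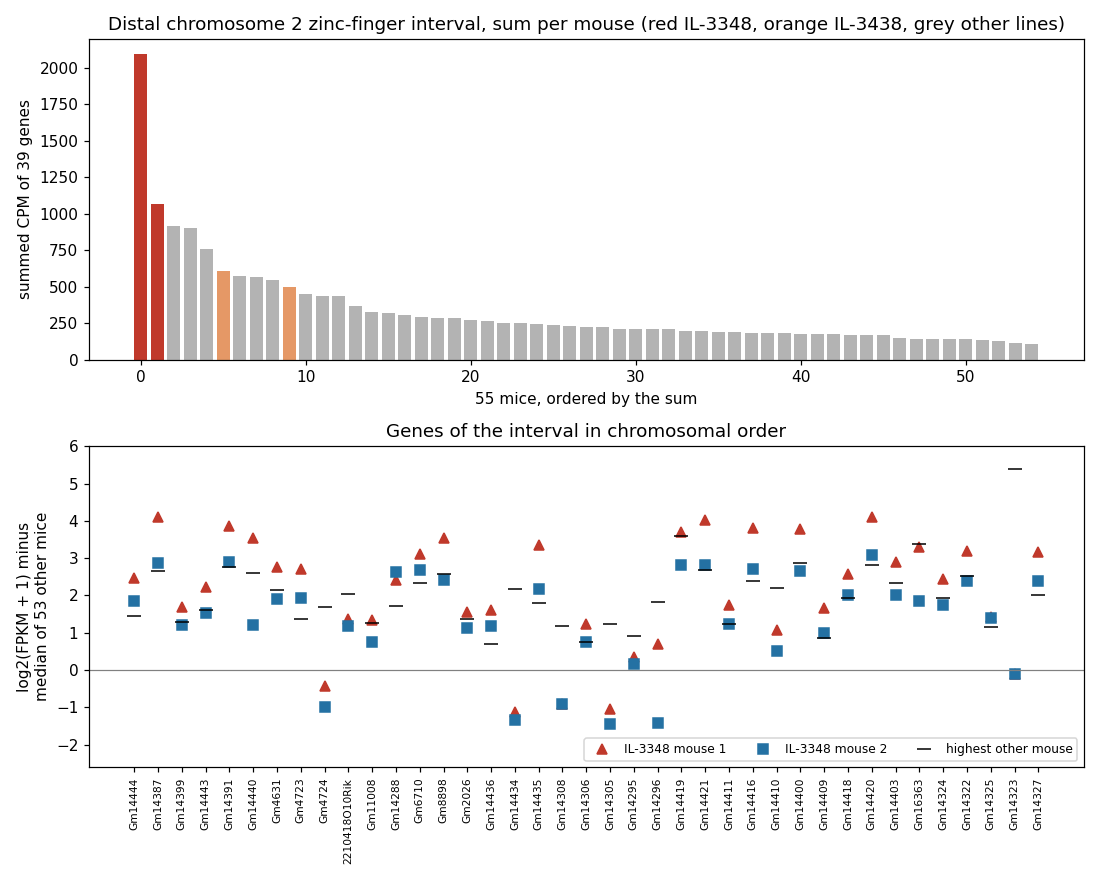
Upper panel, summed CPM of the 39 genes of the chromosome 2 interval in each of the 55 mice in descending order, with IL-3348 in red, IL-3438 in orange and the other lines in grey. Lower panel, each gene in chromosomal order as log2(FPKM + 1) minus the median of the 53 other mice, with IL-3348 mouse 1 as red triangles, mouse 2 as blue squares and the highest other mouse as a black dash. Mouse 1 stands at 2093 CPM, mouse 2 at 1065 CPM and the highest other mouse at 914 CPM.

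In the edgeR quasi-likelihood test on line sums, with IL-3348 as 1 line against 28 and Benjamini-Hochberg adjustment, 2 of the 16 genes passed an adjusted p of 0.05, Gm14327 (log2 fold change 2.68 ± 0.54 SE, adjusted p = 0.034) and Gm14435 (2.57 ± 0.53, adjusted p = 0.044). Without mouse 1 the log2 fold changes were 2.21 and 1.80 and both calls were lost (adjusted p = 0.58 and 1). The calls were also lost under other settings, Gm14327 in 7 of 13 alternatives in all (adjusted p of 0.064 to 0.58 where lost) and Gm14435 in 8 of 13 (0.061 to 1). The log2 fold changes of the run had a median of 2.56, which follows from how its genes were chosen, and 12 of the 16 genes were also outside the range on TMM-scaled CPM.

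Among the genes below the range, Grsf1 was the clearest. Grsf1 (ENSMUSG00000044221, chr5:89088473-89105196, minus strand), which encodes an RNA-binding protein of mitochondrial RNA granules, had 11.02 and 10.65 FPKM against 19.3 to 54.0 in the other mice. The line means of the others averaged 38.1 ± 5.82 FPKM (SD, n = 28 lines), and the IL-3348 mice nearly coincided, far below the lowest other mouse, which was of IL-3438. In counts the difference was larger, with 11 and 10 CPM against 43.4 to 121 CPM. edgeR gave a log2 fold change of -3.18 ± 0.27 SE (adjusted p = 1e-08), and the call held without mouse 1 (adjusted p = 1.4e-08) and without mouse 2 (adjusted p = 9.8e-09).

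The isoform ratios, a readout that the rule on genes did not use, were also furthest out in Grsf1. An isoform ratio is the percentage of a gene's expression given to 1 annotated isoform. Grsf1-006, which has 4 exons and ends at chr5:89100232, took 49.1% and 57.5% of Grsf1 in the IL-3348 mice and at most 1.22% in any other mouse. Grsf1-003, with 6 exons, took 23.5% and 18.7% against at most 3.74%. Grsf1-002, the main full-length form with 10 exons, took 11.5% and 8.75% against 52.2 to 91.2%. The forms that hold the last exon, Grsf1-001 and Grsf1-002, had together 2.93 and 2.53 FPKM in IL-3348 against 18.7 to 54.0 FPKM elsewhere (37.6 ± 5.82 FPKM, SD, n = 28 line means). The ratios rest on 351 and 273 estimated fragments of Grsf1. The short forms Grsf1-003 and Grsf1-006 had together 7.99 and 8.12 FPKM in IL-3348 against at most 1.34 FPKM elsewhere. The reduction in total expression was thus accompanied by a higher estimated level of forms that end early in the gene.

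**Figure D3:**
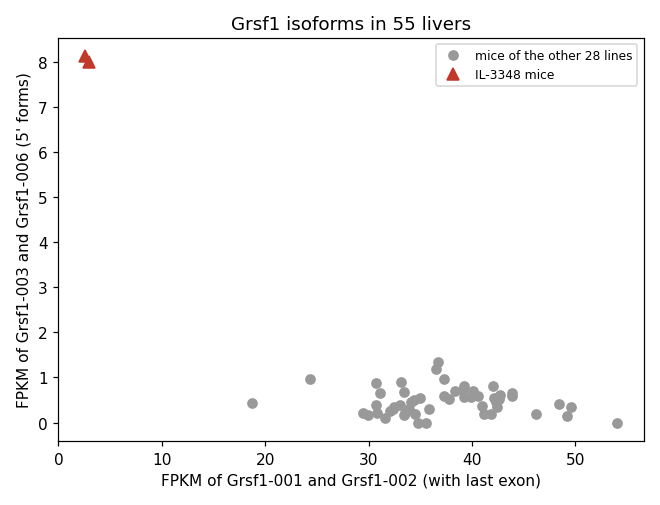
Estimated FPKM of Grsf1 forms with the last exon (Grsf1-001 and Grsf1-002, x axis) against the short 5' forms (Grsf1-003 and Grsf1-006, y axis), 1 point per mouse, with IL-3348 as red triangles and the other 53 mice as grey circles. The IL-3348 mice stand alone in the upper left, at 2.93 and 2.53 FPKM of the forms with the last exon.

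Over all isoforms of the 7189 genes with at least 20 estimated fragments in every mouse, 35 of 42769 isoform ratios lay above the range of all other mice (0.0818%) and 14 below it (0.0327%). They belonged to 41 genes, of which 4 were also outside the range in total expression. The gap was under 1 percentage point for 27 of the 49 ratios and at least 5 points for 7. The 6 largest gaps were those of 3 forms of Grsf1, 2 forms of Igfbp7 and 1 form of Mup9.

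Igfbp7 encodes a secreted protein that binds insulin-like growth factors. One of its annotated forms, ENSMUST00000072884, took 100% and 99.2% of the gene in the IL-3348 mice, and the usual form, ENSMUST00000046746, took 0% in both. In the other mice ENSMUST00000072884 was at 0% in 41 of 53 and above 10% in 6, with at most 65.4%, in a mouse of IL-219 whose line mate had 0.22%. The total expression of Igfbp7 was inside the range, at 34.6 and 43.2 FPKM against 11 to 52.3. The structures of these forms matter for reading this result. In exon 1, ENSMUST00000072884 leaves out 2 bases that ENSMUST00000046746 has, and otherwise the forms differ only by a few bases at their ends. The 72 bases around this place (chr5:77836768-77836839, minus strand) are printed with the 2 bases in capitals.

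Igfbp7 exon 1: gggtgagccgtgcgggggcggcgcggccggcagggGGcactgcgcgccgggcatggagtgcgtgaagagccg

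The forms thus differ by the number of G in a run of G, and the place of the 2 bases within that run is arbitrary. What the reads of these mice held there was not examined here. Mup9-004, annotated as a retained intron, took 20.6% and 18.3% of Mup9 against at most 4.54%, in a gene whose total was below the range. This share is uncertain because fragments were split between Mup copies, as described below.

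Hjurp, a chaperone that places the centromeric histone CENP-A (chr1:90155690-90174208), had 1.63 and 1.58 FPKM against 4.36 to 45.5 FPKM in the other mice. This was the widest gap below the range on the log2 scale, 1.03. The level of the others was itself variable, 13.9 ± 7.37 FPKM (SD, n = 28 line means), and 16 of the 53 mice, from 10 lines, were under 10 FPKM. The log2 fold change of -3.16 did not pass the edgeR test against the spread among lines (adjusted p = 1), whereas it passed when the spread was taken between mice of the same line (limma, adjusted p = 1.6e-08).

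B4galnt1, which encodes the enzyme that makes the gangliosides GM2 and GD2, had 0.14 and 0.11 FPKM, at the edge of the range (0.15 to 36.9). The other mice fell in separate groups. There were 9 mice under 1 FPKM, from IL-219, IL-2680, IL-3438 and IL-670, and the remaining mice had at least 8.84 FPKM. IL-3348 thus belonged with 4 other lines with almost no B4galnt1 transcript, and its place below the range is a matter of hundredths of FPKM. A similar division was seen in Gstt1, a theta-class glutathione S-transferase, with 4.50 and 5.49 FPKM in IL-3348. For Gstt1, 6 mice of IL-2011, IL-3438 and IL-670 were also under 10 FPKM and the rest had at least 79.1. The IL-3438 mice were divided between these groups, at 80.2 and 8.36 FPKM. Rarres1, a retinoic acid-responsive gene, had 0.05 and 0 FPKM, with all 3 mice of IL-785 under 1 FPKM and every remaining mouse at 22.7 FPKM or more. Rarres1 was the other gene called lower by edgeR (adjusted p = 0.035), a call that was lost in 5 of 13 alternatives (adjusted p of 0.061 to 0.2), among them the one without mouse 1. It had 2 and 0 estimated fragments, so that a fitted fold change would depend on the prior count and is not given. It is named because it passed the test, after its values were seen.

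The remaining genes below the range were diverse. Acss2, which makes acetyl-CoA from acetate, had 27.0 and 7.48 FPKM against 27.9 to 232, so that the line mates differed by more than the gap to the other mice. Zfp938, a zinc-finger gene, had 0.23 and 0.21 FPKM against 0.34 to 2.45. At these levels a few fragments decide the order. Serpinb8, an intracellular protease inhibitor, had 0.34 FPKM in both mice against 0.37 to 7.99, Zfp672 had 3.09 and 3.12 FPKM against 3.29 to 9.00, and Lars, the cytosolic leucyl-tRNA synthetase, had 5.99 and 6.05 FPKM against 6.10 to 10.5. Zfp672 and Serpinb8 were not below the range on TMM-scaled CPM.

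Above the range and outside chromosome 2, the widest gap on the log2 scale was that of Gm13050, an annotated pseudogene, with 13.4 and 14.4 FPKM. Of the other mice, 12 had more than 1 FPKM (at most 10.8, in IL-3438) and the rest had at most 0.03. Klf13, a Krueppel-like transcription factor, had 14.3 and 14.1 FPKM against 1.83 to 11.7, and Map2k6, a kinase that activates p38, had 9.20 and 8.97 FPKM against 0.61 to 7.42. In both genes the line mates were almost equal. Pfn2, an actin-binding profilin, had 4.89 and 5.68 FPKM against 0.76 to 4.18.

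In 2 genes IL-3348 headed the mice with more than 10 FPKM. Cyp46a1, the cholesterol 24-hydroxylase known for its role in brain, had 43.6 and 38.4 FPKM, where 9 mice of 6 lines had more than 10 FPKM (at most 34.7, in IL-3438) and the other mice at most 9.33. For Cyp46a1 this limit did not part separate groups. Line mates fell on both sides of it, as in IL-72 with 17.8 and 9.33 FPKM. Accn5, an ion channel of the degenerin family, had 51.6 and 50.9 FPKM, where 15 mice of 8 lines were above 10 FPKM (at most 45.9) and the rest at most 5.47. Cyp46a1 was outside the range on both scales and Accn5 on FPKM only.

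Outside the chromosome 2 run, the most abundant genes above the range were enzymes and secreted proteins of hepatocytes, each with a small excess. Phyh, a peroxisomal hydroxylase of branched fatty acids, had 1672 and 1796 FPKM against at most 1617. Cyp2a12, a steroid and drug hydroxylase, had 502 and 527 FPKM against 69.1 to 473. Sephs2, a selenophosphate synthetase, had 343 and 342 FPKM against at most 338, and Sdha, a subunit of succinate dehydrogenase, had 194 and 192 FPKM against at most 176. F12, coagulation factor XII, had 193 and 206 FPKM against at most 188. Of these genes only Cyp2a12 was also above the range on TMM-scaled CPM, and its excess over the other line means (291 ± 116 FPKM, SD, n = 28 lines) did not pass the edgeR test (log2 fold change 0.66, adjusted p = 1).

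There were 2 further runs of neighbouring genes outside the range. On chromosome 1 (chr1:169156221-169298661), all 3 genes examined departed, in opposite directions. Uck2, a kinase of pyrimidine salvage, had 0.75 and 0.52 FPKM against 0.88 to 3.52, whereas its neighbours were high, Tmco1, a channel of the endoplasmic reticulum, with 21.6 and 21.7 FPKM against at most 20.5 and Aldh9a1, an aldehyde dehydrogenase, with 94.1 and 96.0 FPKM against at most 88.6. On chromosome 4, Hmgn2, Pafah2 and Tmem50a were above the range among 15 genes examined over 0.95 Mb, with Hmgn2, a nucleosome-binding protein, at 23.8 and 24.5 FPKM against at most 22.6. In both runs the high genes were above the range on FPKM only.

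The genes called by edgeR formed a different group. Of 11284 genes, 9 were called higher (0.0798%) and 2 lower (0.0177%), with 197 genes at an unadjusted p under 0.05. Of the 9 genes called higher, 6 stayed under 2 FPKM in every other mouse and passed the expression filter through mouse 1 alone, so that they could be called in this direction only. Besides the 2 genes of the chromosome 2 run, the 7 genes called higher were all high in mouse 1 and at the level of the other lines in mouse 2. They are named because they passed the test, after their values were seen. Muc3, an intestinal membrane mucin, had 8.02 FPKM in mouse 1 and 0 in mouse 2, with at most 0.04 in the other mice. Muc1, another mucin, had 3.83 and 0.17 FPKM against at most 0.62. Spink4, a gene of goblet cells, had 5.63 and 0 FPKM, Lgals2, a galectin, had 6.75 and 0.14 FPKM, Phgr1 had 3.02 and 0 FPKM, and Sprr2a2, a small proline-rich protein of epithelia, had 2.40 and 0.06 FPKM. The remaining one was Dmbt1, a scavenger receptor of mucosal surfaces, given above. In all 7 genes mouse 2 was inside the range of the other lines, and with mouse 1 left out edgeR called 1 gene, Grsf1. With mouse 2 left out it called 21 genes higher and 2 lower. Of 14 other epithelial genes, chosen after earlier values were seen, mouse 1 was above all other mice for 7. Over all 11284 genes examined, mouse 1 alone was above all other mice for 253. Some of the 14 genes stayed under 2 FPKM in every mouse and are not among the 11284. Krt19, a keratin of cholangiocytes, was among the 7, at 6.32 and 0.58 FPKM against at most 1.87. Epcam, at 1.53 and 0.28 FPKM against at most 6.03, and the goblet cell gene Tff3, at 27.8 and 4.13 FPKM against at most 249.6, were not, and Cdx2, an intestinal transcription factor, was listed at 0 in both mice.

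The 5 cholangiocyte markers summed to 64.8 and 48.1 TPM (transcript shares scaled to a fixed total), inside the 8.48 to 290 TPM of the other mice, and none was at 0. Pancreas markers, at 24.5 and 24.1 TPM, were near the median of 30.3 TPM and did not separate the line mates, and 3 of the 5 were at 0 in mouse 1. The hepatocyte markers summed to 86180 and 75093 TPM (27681 to 109838 in the others) and none was at 0, although Serpina1e, a protease inhibitor of the serum, was low at 157 and 166 FPKM against a median of 4202. The part that other cells had in the result of mouse 1 was not tested. The range rule asks for a departure in mouse 2 as well.

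**Figure D4:**
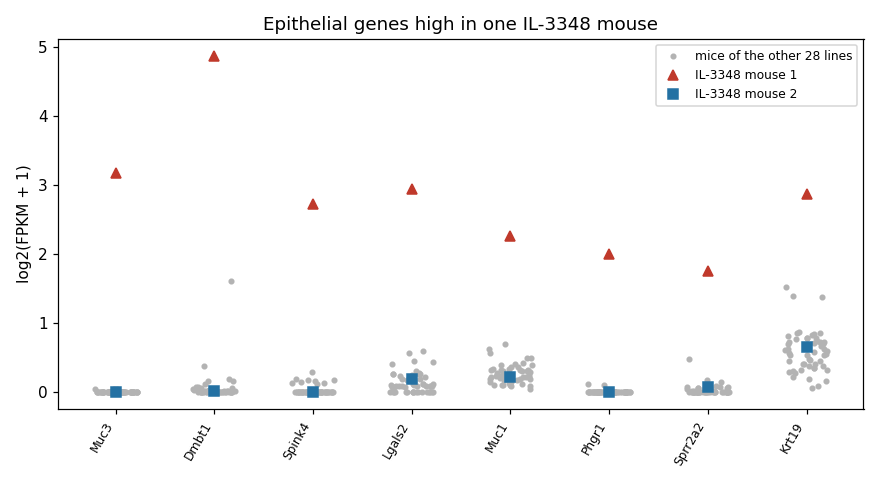
FPKM on a log2(FPKM + 1) scale of the 7 epithelial genes called higher by edgeR and of Krt19, with IL-3348 mouse 1 as a red triangle, mouse 2 as a blue square and the 53 other mice as grey points. Mouse 1 is above all other mice for each gene, and mouse 2 is among them.

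When the spread was taken between mice of the same line (limma on log2 CPM with 1 coefficient per line), 559 genes were higher (4.95%) and 550 lower (4.87%) in IL-3348 than in the mean of the other lines. This asks whether IL-3348 differs from the mean of the lines by more than line mates differ, and not whether it stands apart from the other lines. In the lists of liver genes below, counts of genes higher or lower come from this fit, and medians are given from both fits, edgeR first. Of 651 genes of the 26 lists, edgeR called 0, with 11 at an unadjusted p under 0.05, DESeq2 called 0 higher and 7 lower, and the test against the spread of line mates called 45 higher (6.91%) and 47 lower (7.22%). Both IL-3348 mice were above the range for 5 of the 651 genes and below it for 2. Over all 11284 genes examined the shares were 0.762% above and 0.0975% below.

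Of 16 circadian clock genes tested, 5 were higher and 2 lower by the spread of line mates, 11 had a positive edgeR log2 fold change and the median log2 fold changes were 0.45 and 0.49. Hlf, a PAR bZIP transcription factor driven by the clock, was above the range on both scales with 15.4 FPKM in both mice against 4.35 to 14.0. Tef, of the same family, had 64.7 and 37.8 FPKM against a median of 21.4, and Per3, a repressor of the clock, had 7.02 and 3.60 FPKM against a median of 1.47. Arntl, the activator whose phase is opposite to theirs, was at the low end, with 0.30 and 0.33 FPKM against a median of 1.87 (0.11 to 8.39). None of the 4 passed the edgeR test, with the smallest unadjusted p for Hlf at 0.037. The hour of collection is not given in the labels, so that the line and the hour cannot be told apart.

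**Figure D5:**
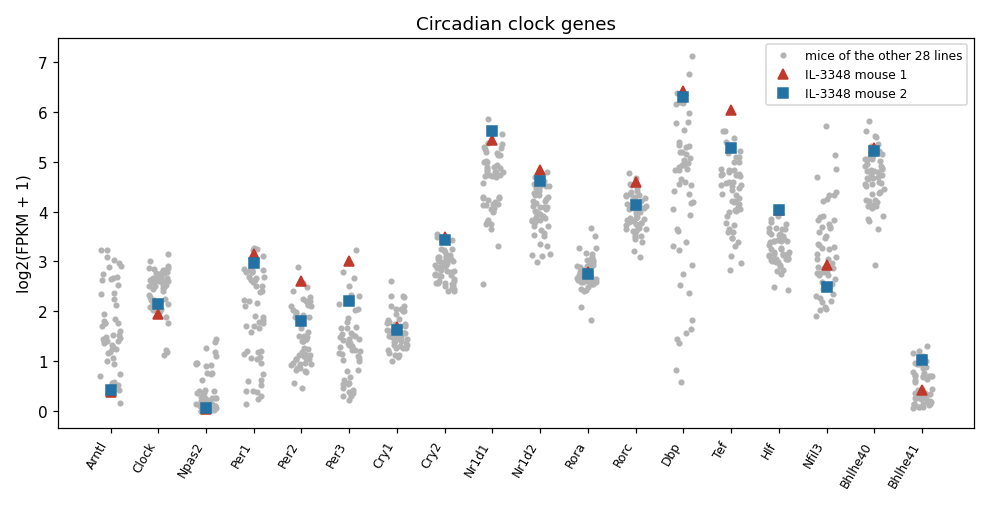
FPKM on a log2(FPKM + 1) scale of 18 circadian clock genes, with IL-3348 mouse 1 as red triangles, mouse 2 as blue squares and the 53 other mice as grey points. Arntl and Clock sit low in both IL-3348 mice, whereas Hlf sits above all other mice and Tef, Per1 and Dbp sit high within the range or, for Tef, above it in mouse 1.

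Of the major urinary proteins, lipocalins that carry pheromones in male urine, Mup9 (chr4:60430918-60434824) was below the range with 79.0 and 248 FPKM. The other mice had a median of 22217 FPKM and at least 491, and 3 mice of IL-1513, IL-2156 and IL-2680 were under 5000. Mup17 had 94.8 and 614 FPKM against a median of 7189 (7.10 to 66345). Mup5 and Mup6, which were low everywhere, had 0.46 and 0.95 FPKM and 1.01 and 1.33 FPKM. Not all copies were low, since both mice were under the median of the other mice for 11 of 21 genes and over it for 6. The log2 fold change of Mup9, -8.06 ± 2.34 SE, did not pass the edgeR test (adjusted p = 0.62) and passed against the spread of line mates (adjusted p = 8e-10). Only 2.68% of the Mup estimates were whole numbers, so that the split between these copies is as uncertain as on chromosome 2. In the list of serpin A and major urinary proteins, 5 of 38 genes were higher and 6 lower by the spread of line mates.

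Among 22 glutathione S-transferases, which conjugate drugs and electrophiles, 3 were lower by the spread of line mates and none higher. These were Gstt1 (log2 fold change -5.14 ± 1.60 SE in edgeR), Gstm4, with 26.5 and 34.4 FPKM against a median of 45.1, and Gsto1, with 46.0 and 41.7 FPKM against 54.6. The medians of the list were -0.27 and -0.06. Its summed expression was not low, at 13969 and 15176 TPM against a median of 11230 TPM (5756 to 14896) in the other mice. Of 58 cytochrome P450 genes of families 1 to 4, 4 were higher and 9 lower, and the median log2 fold change was -0.25 in edgeR and 0.04 against the spread of line mates, so that its sign depended on the fit. Neighbouring Cyp2c genes were low together, Cyp2c54 at 66.98 and 48.89 FPKM against a median of 153, Cyp2c50 at 133 and 120 FPKM against 301, and Cyp2c37 at 17.0 and 15.4 FPKM against 57.8. A few other mice were lower in each of them.

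Of 42 complement and coagulation genes, 6 were higher and 2 lower by the spread of line mates. Hc, complement component C5, had 37.7 and 29.5 FPKM against a median of 116 (30.5 to 319), so that mouse 2 alone was below the range, and C4a had 140 and 128 FPKM against a median of 26.7. For C4a, 3 mice of IL-2680 and IL-3438 were also over 100 FPKM, and the rest reached 83.7. C4a has a close copy, C4b, and its level is uncertain to that extent. C6, a component of the membrane attack complex, differed between the line mates, with 199 and 623 FPKM against a median of 99.9. Mbl1, a mannose-binding lectin, was lower, with 154 and 166 FPKM against a median of 222.

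Among 22 hepatic transporters, 2 were higher and 2 lower. Abcb11, the bile salt export pump, had 70.3 and 73.0 FPKM against 61.2 to 186 and Abcc6, an efflux transporter, had 17.2 and 14.8 FPKM against 8.34 to 45.8, both lower. Slco1a1, an uptake transporter, was higher, with 288 and 281 FPKM against a median of 161. Of the 17 genes of bile acid synthesis, Baat, which conjugates bile acids, was above the range on FPKM only, with 162 and 154 FPKM against at most 152, Acox2 was higher, with 102 and 121 FPKM against a median of 69.8, and 1 gene was lower.

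In the major histocompatibility complex, H2-T10 had 36.3 and 34.3 FPKM against 0.48 to 32.2, with 8 mice of 5 other lines over 20 FPKM. Its neighbours in sequence H2-T22 and H2-T23 were lower, H2-T22 at 10.8 and 10.6 FPKM against a median of 43.6 and H2-T23 at 44.3 and 43.1 FPKM against 128. H2-T24 was low everywhere, at 0.71 and 0.69 FPKM against 1.07. These genes are close copies, and IL-3438 had similar values of H2-T10 (24.3 and 32.2 FPKM) and H2-T22 (7.96 and 10.8 FPKM). Of 28 genes of the list, 3 were higher and 3 lower.

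The lists of acute phase genes and of immediate early and stress genes had the lowest medians of the 26 lists. Of 30 acute phase genes, 1 was higher and 2 lower, with 3 positive log2 fold changes in edgeR and medians of -0.77 and -0.41. Mt2, a metallothionein, had 5.92 and 4.27 FPKM against a median of 104, but other mice went down to 0.44, and Orm3 had 1.71 and 0.21 FPKM against 4.44. Of 37 immediate early and stress genes, 3 were higher and 5 lower, 4 had positive log2 fold changes in edgeR, and the medians were -0.74 and -0.29. Of 55 interferon-stimulated genes, 1 was higher and 1 lower, and the medians of -0.14 and 0.21 differed in sign. Of 24 cholesterol synthesis genes none was called, with medians of -0.10 and -0.01. Of 28 genes of fatty acid oxidation, 1 was higher and 1 lower, Etfdh, an electron carrier of beta-oxidation, at 85.1 and 93.4 FPKM against a median of 115.

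Alas2, the first enzyme of heme synthesis in erythroid cells, was above the range on FPKM, with 117 and 124 FPKM against 2.52 to 109, and not on TMM-scaled CPM. It is one of 5 erythroid markers. The sum of the 5 markers, 830 and 935 TPM, was below the median of 1744 TPM of the other mice (556 to 5935), and the 3 globin genes among them were below their medians in both mice, with Hbb-b1 at 174 and 218 FPKM against a median of 471.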

How the data were processed

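Liver polyA RNA of 55 male mice of 29 lines was measured by stranded, paired-end RNA sequencing with reads of 50 bases. Per the labels and the study's methods, the authors aligned reads with Bowtie 2 to mm9 transcripts (Ensembl 67) and ran RSEM 1.2.18. The deposited expected counts are estimated fragments per gene, with fragments of shared sequence split between genes. The deposited FPKM and TPM are scaled by RSEM for length and library. The deposited isoform ratios are percent of a gene. Gene positions, types and sequences came from GENCODE annotation and genome of mm9, where 11260 of 11284 genes were found.

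Genes with a maximum FPKM of at least 2 were kept. The range rule has no test. Expected counts were summed by line, rounded and tested with edgeR 4.0.16 (TMM, quasi-likelihood F test, Benjamini-Hochberg). IL-3348, as 1 line, was assumed to vary like the others. The SE of a log2 fold change was its size divided by the square root of F. Limma 3.58.1 (log2 CPM, prior count 2) and DESeq2 1.42.0 were alternatives, with R 4.3.3 and Python 3.11.15. edgeR was tested on simulated data. No sequencing batch is given in the labels. P-values of edgeR and DESeq2 are set against the spread between these lines. Those of limma with 1 coefficient per line are set against the spread between mice of a line. Depth limits genes under about 1 FPKM.

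A gene below the range is not reported here. Members and gene lists were chosen with earlier results of these data known. Named were the 12 genes above and 12 below the range with the largest gaps (11 existed below), listed genes outside it, the 5 highest in each direction, up to 4 members per list by edgeR p, genes of runs within 1 Mb, and the 6 isoforms with the largest gaps. Genes given otherwise, among them Ncoa4, Pfn2, Cyp46a1 and Accn5, were chosen after their values were seen.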

Additional observations from a re-analysis of the deposited data

How the results depend on the processing

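The count of 11 genes called by edgeR was sensitive to the settings. It was 5 with edgeR's own expression filter, 42 (40 higher and 2 lower) without a filter, 62 (4 higher and 58 lower) with DESeq2's Wald test, 18 with limma on log2(FPKM + 1), 4 with age and body weight as covariates, 6 in lines with at least 2 mice and 1109 with the spread between mice of a line. It stayed within 1.5 times with DESeq2 size factors, with limma on log2(FPKM + 0.1), without IL-1052 and IL-2750, and without IL-3438, an alternative chosen after seeing the data. Without 1 IL-3348 mouse it was between 1 and 23. The count of 97 genes outside the range was 159 (154 above and 5 below) on TPM, 52 (30 above and 22 below) on TMM-scaled CPM and 214 against the range of line means, and between 278 and 323 with a single IL-3348 mouse. The 49 isoform ratios became 428 to 505 with a single mouse. FPKM line means were centred differently from TMM, with a median log2 difference over all genes of 0.12 (pseudocount 1) or 0.16 (pseudocount 0.1) against -0.04, so that small excesses in FPKM are relative to that shift. The cause of these changes was not tested.

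Of 78 genes compared under these settings, the log2 fold change of 5 turned negative, all without mouse 1. Leaving out 1 IL-3348 mouse gave -0.88 to 11.08 for Muc3, -0.63 to 8.39 for Phgr1, -1.97 to 7.41 for Spink4, -2.62 to 8.53 for Dmbt1 and -0.37 to 3.84 for Muc1. Over the 1009 gene and setting pairs, 893 kept direction and call, 76 gained the call and 35 lost it. No paired analysis was possible because the labels carry no replicate numbers.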
